A study of Mus musculus with 13 samples.

Results

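The proteins of the mitochondrial ribosome come from nuclear genes whose symbols mostly begin with Mrpl for the large subunit and Mrps for the small subunit. All genes of the count table whose mouse symbol was Mrpl or Mrps followed by a number and at most the letter a, b or c were taken, without regard to their level. This gave 77 genes, 48 Mrpl and 29 Mrps, of 37991 in the table. Single splenic B cells of wild type C57BL/6 mice aged 6-8 weeks were captured on a Fluidigm C1 chip 24 h after stimulation with CpG ODN 1668, an agonist of TLR9. The smallest and the largest of the photographed cells were sequenced, giving 5 small cells (A2, F7, H1, C12 and C7) and 5 large cells (E1, E3, C1, G2 and C3), next to a diluted bulk library of the same stimulation, a bulk library at 0 h and a library of spike-in RNA with no cell. The dose of CpG stands as 250 nM in one label and as 250 ng/mL in another, and all cells shared it. No label names the mouse or culture of a cell, so each size group counts as 1 sample and no p-value is given. The values below describe these cells.

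The mitoribosome sits in the mitochondrial matrix and translates the mRNAs of mitochondrial DNA, which encode subunits of the respiratory chain and of ATP synthase. Its proteins are all made in the cytosol and imported, while its rRNAs come from mitochondrial DNA. Part of the proteins have counterparts in bacterial ribosomes, and others were added in the mitochondrial lineage. Lymphocytes that leave rest enlarge and build up mitochondrial protein before they divide, which is why the family is of interest in small and large activated B cells.

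Gene counts per cell were between 3311235 and 6311782, with 1740862 in the diluted bulk, 825441 in the 0 h bulk and 190 in the library with no cell, where the family had 2 counts. The 5 B cell markers reported here (Cd79a, Cd79b, Ms4a1, H2-Ab1 and Cd74) had reads in every cell but C3, summing to between 3355 and 28258 counts per 1000000 gene counts (CPM). In C3 only 3 of the 5 had reads, at 782 CPM, and Cd79a and H2-Ab1 were at 0. C3 was left out of the size comparison, as in the study's methods. The comparison thus held 9 cells. The summed T cell markers reached at most 107 CPM in a cell and the NK cell and red cell markers were at 0 in all 10 cells. Summed plasma cell markers (Sdc1, Prdm1 and Xbp1, of which Sdc1 had reads in A2 alone) were 1799 CPM in C12, 1119 CPM in A2, 733 CPM in G2 and 303 CPM in E1, and between 0 and 14.5 CPM in the other 6 cells. Summed myeloid markers were 1890 CPM in G2, 710 CPM in C12 and 453 CPM in C3, nearly all of it from Adgre1, while Lyz2, Cd14 and S100a8 were at 0 in all 10 cells. The part of these reads in the family values of A2, C12, E1 and G2 was not tested. The library labelled 0 h went against its label as bulk B cell cDNA. It had reads for 33107 genes, Gm10800 alone took 27.0% of its counts, Actb had 22 counts beside 694 for the muscle gene Ttn, and its counts followed exon length (Pearson r = 0.83 across 32919 genes, 0.23 in the diluted bulk). No comparison between 24 h and 0 h was therefore drawn.

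Promoter sequences are given for 4 genes whose values in the cells are described further on. They are Mrpl46 and Mrps11, which start 42 bases apart on opposite strands of chromosome 7, Mrps7, the member that was on in all 4 large cells compared besides Mrpl45, and Mrpl17, the only member called lower in large cells. RefSeq promoter windows (build GRCm38.p6, 250 bases before to 50 after the start, 5′ to 3′ on the gene's strand) were found for 68 of the 77 genes. Capitals mark 3 short motifs searched on both strands, which do not overlap in these windows, namely CCGGAAG (the core bound by ETS factors), GCGCATG (a core of the NRF1 motif) and AAGATGG (a core of the YY1 motif). The windows are Mrpl46 at chr7:78783040-78783339 (minus strand), Mrps11 at chr7:78782881-78783180 (plus strand), Mrps7 at chr11:115603890-115604189 (plus strand) and Mrpl17 at chr7:105811038-105811337 (minus strand).
Mrpl46: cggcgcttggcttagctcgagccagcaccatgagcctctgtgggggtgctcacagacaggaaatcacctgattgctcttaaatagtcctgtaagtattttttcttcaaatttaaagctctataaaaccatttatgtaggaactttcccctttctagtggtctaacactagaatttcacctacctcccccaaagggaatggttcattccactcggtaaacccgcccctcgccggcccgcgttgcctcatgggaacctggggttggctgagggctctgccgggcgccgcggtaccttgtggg
Mrps11: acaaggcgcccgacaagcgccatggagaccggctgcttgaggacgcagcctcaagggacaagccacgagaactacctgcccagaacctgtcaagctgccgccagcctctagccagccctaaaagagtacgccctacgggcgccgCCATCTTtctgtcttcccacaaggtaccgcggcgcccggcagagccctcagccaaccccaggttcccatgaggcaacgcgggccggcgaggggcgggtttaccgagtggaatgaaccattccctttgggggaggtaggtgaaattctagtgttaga
Mrps7: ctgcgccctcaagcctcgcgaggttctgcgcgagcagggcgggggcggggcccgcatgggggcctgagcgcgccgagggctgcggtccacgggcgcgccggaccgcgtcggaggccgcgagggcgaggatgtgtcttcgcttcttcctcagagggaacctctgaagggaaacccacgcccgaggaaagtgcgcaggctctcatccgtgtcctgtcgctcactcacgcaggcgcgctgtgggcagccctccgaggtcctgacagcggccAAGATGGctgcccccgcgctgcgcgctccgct
Mrpl17: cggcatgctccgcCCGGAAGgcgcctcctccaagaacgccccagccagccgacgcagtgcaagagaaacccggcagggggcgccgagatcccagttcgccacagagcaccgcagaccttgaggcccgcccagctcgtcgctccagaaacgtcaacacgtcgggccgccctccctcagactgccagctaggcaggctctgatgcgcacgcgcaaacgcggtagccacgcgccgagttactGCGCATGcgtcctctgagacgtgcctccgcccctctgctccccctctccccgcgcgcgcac

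The Mrps11 window held 1 YY1 core, on the minus strand, and the Mrps7 window 1 on the plus strand just past the start. The Mrpl17 window held 1 ETS core and 1 NRF1 core, and the Mrpl46 window held none of the 3. Over the 68 genes, the ETS core stood in the windows of 25 (36.8%, against 9.93% of 27025 genes with a window), the YY1 core in those of 13 (19.1% against 7.28%) and the NRF1 core in those of 7 (10.3% against 4.41%). At least 1 of the 3 stood in 37 (54.4% against 19.5%). The 37 genes with a motif and the 31 without had the same median number of cells on, 3, and mean levels of 52.6 and 48.8 CPM at the median. A window of another gene on the opposite strand overlapped that of 24 of the 68 genes (35.3%, against 11.9% of all genes), among them Mrpl18 with Tcp1, Mrpl43 with Twnk and Mrpl47 with Ndufb5. A match is a run of letters and not a measured binding site.

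The family took between 0.303% and 0.723% of the gene counts of the 9 cells. The shares were 0.541% in A2, 0.599% in F7, 0.493% in H1, 0.307% in C12 and 0.303% in C7 for the small cells, and 0.723% in E1, 0.652% in E3, 0.627% in C1 and 0.380% in G2 for the large cells. C3 was below all of them at 0.274%, and the diluted bulk was above all of them at 0.763% (95% exact binomial interval 0.750 to 0.776%, counting error only, since reads are PCR copies). The median was 0.493% in small and 0.640% in large cells, and the groups overlapped, because A2, F7 and H1 were above G2. Cytosolic ribosomal proteins took 5.96% of counts at the median of the 9 cells and nuclear subunits of the respiratory chain 1.59%.

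**Figure D1:**
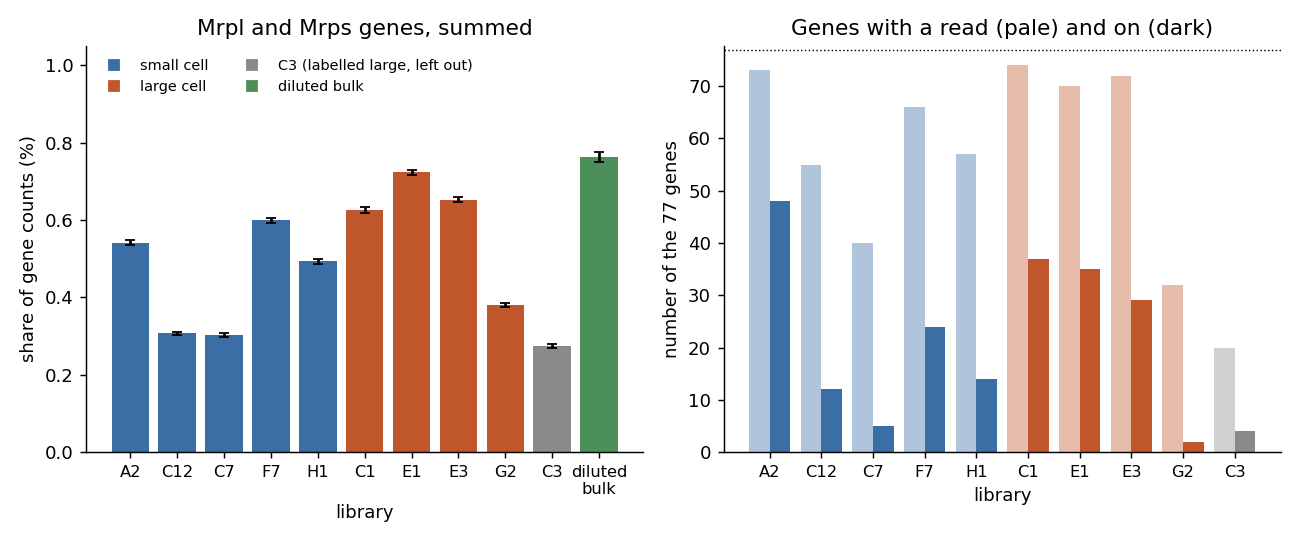
Left, the share of gene counts (%) taken by the 77 genes in each library, with 95% exact binomial intervals for counting error; right, how many of the 77 had a read (pale) and were on (dark) in each cell, with a dotted line at 77. E1 has the highest share among the cells and C3 the lowest, and G2 stands low in both panels among the large cells.

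To set cells on one scale, counts were multiplied by the spike-in factor that the authors deposited for each library. The normalized family count was 26336 in A2, 13699 in F7, 7837 in H1, 5313 in C12 and 2962 in C7, and 20287 in E1, 15502 in E3, 25349 in C1 and 2120 in G2. Thus A2, a small cell, was the highest of all and G2, a large cell, the lowest of the 9. The ratio of medians, large over small, was 2.28 for the family, 1.496 for all gene counts, 1.12 for cytosolic ribosomal proteins, 1.62 for the nuclear respiratory chain and 1.60 for mitochondrially encoded mRNAs. With library totals in place of the factors, which makes all gene counts equal between cells, the family ratio was 1.30. With means in place of medians it was 1.41, and leaving out 1 cell at a time it ranged from 1.66 to 2.72. These last values are given for the family alone, with none for all gene counts beside them.

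Following the study's methods, 100 was added to the normalized count to give an adjusted count, and a gene was called on in a cell where the adjusted count was above 300. Reads of all 77 genes were found among the 9 cells, and 66 genes passed the threshold in 1 or more of them (85.7%, against 16.9% of the 37991 genes). The 11 that were never on were Mrpl14, Mrpl23, Mrpl38, Mrpl52, Mrpl53, Mrps6, Mrps15, Mrps30, Mrps34, Mrps35 and Mrps36. Mrpl53 had 5 reads in all, in C1. The number of reads needed to be on was 200 in C1 and 214 in A2, but 2005 in G2, so the calls of a cell move with its factor. A2 had reads for 73 members and 48 on, C12 for 55 and 12, C7 for 40 and 5, F7 for 66 and 24, and H1 for 57 and 14. Among the large cells C1 had reads for 74 and 37 on, E1 for 70 and 35, E3 for 72 and 29, and G2 for 32 and 2. C3 had reads for 20 and 4 on. Over all 37991 genes, the number on was 3819 in A2, 1673 in C12, 961 in C7, 2134 in F7 and 1686 in H1. It was 3103 in C1, 2455 in E1, 2320 in E3, 656 in G2 and 809 in C3. The 10 cells stood in the same order by this number as by members on, so that order was not particular to the family.

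Single cells held the family unevenly. At the median a member had reads in 7 of the 9 cells and was on in 3, and none was on in 8 or 9. Of the 66 genes, 23 were on in 4 or more cells (34.8%, against 31.1% of all genes on in at least 1). Of the 84 nuclear respiratory chain genes 57 were on in 4 or more cells, and of the 81 cytosolic ribosomal protein genes 55 were on in all 9. Mrpl20, Mrpl30 and Mrpl45 were on in 7 cells, and Mrpl15, Mrpl18, Mrpl44 and Mrps7 in 6. Reads in all 9 cells were found for 17 members, and 6 of these, Mrpl17, Mrpl18, Mrpl20, Mrpl48, Mrps21 and Mrps33, had reads in C3 too. For 17 members more than 50% of the spike-in normalized count summed over the 9 cells came from 1 cell, as for Mrps22 (60.3% from E1), Mrps27 (63.4% from E3) and Mrps30 (94.3% from H1). The same count was not made over all genes, so whether the family differs from them in this is not known.

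**Figure D2:**
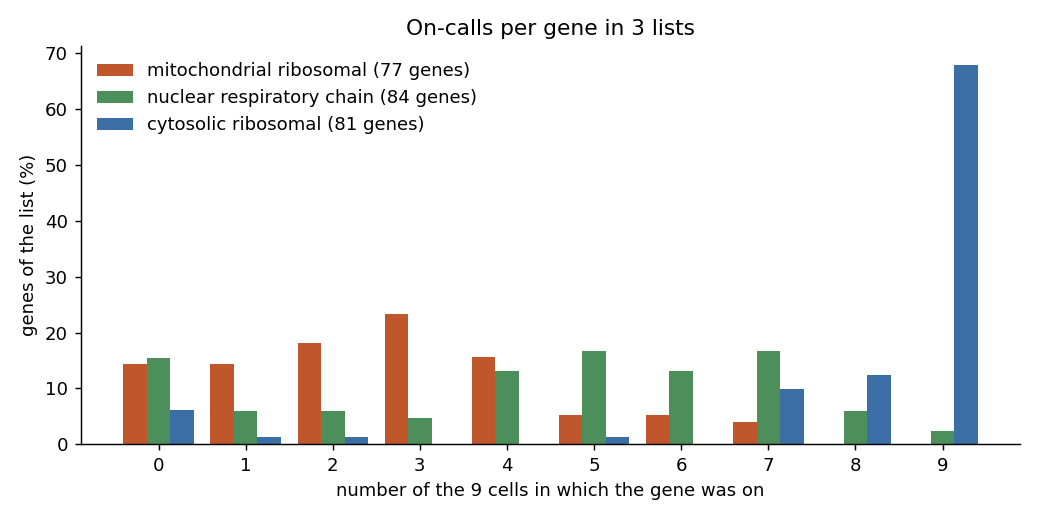
Percent of the genes of each list (vertical axis) that were on in 0 to 9 of the 9 cells (horizontal axis), for the 77 mitochondrial ribosomal, 84 nuclear respiratory chain and 81 cytosolic ribosomal protein genes. The mitochondrial ribosomal genes lie at 0 to 7 cells, while 55 of the 81 cytosolic ones are on in all 9.

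Mrpl45 was the most abundant member in these cells. Its protein lies at the exit of the polypeptide tunnel and anchors the mammalian mitoribosome to the inner membrane. It had adjusted counts of 897 in A2, 1036 in F7, 1091 in H1, 101 in C12 and 108 in C7 among the small cells and of 1881 in E1, 1157 in E3, 3596 in C1 and 1041 in G2 among the large cells. Levels in all 4 large cells were above those of A2, C12 and C7, while F7 lay just below G2 and H1 above it, so the groups overlapped. The mean adjusted count was 1919 against 647, large against small (log2 ratio 1.57), the highest ratio of the family. It passed the on threshold in 4 of the 4 large cells and in 3 of the 5 small ones, a difference of 0.4 that stayed under the call threshold given below. Per kilobase of exon, Mrpl45 was at 207 CPM on the mean of the 9 cells, ahead of Mrpl44 (104), Mrpl28 (103), Mrps21 (95.1) and Mrpl18 (93.3). Exon length merged all exons annotated for a gene and can exceed that of any single mRNA, so the order depends on the annotation. In G2 its 9432 reads were 44.4% of all reads of the family. In C3 it had none.

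The score of a gene was the share of large cells in which it was on minus the share of small cells. A score of 0.5 or more was called higher and one of -0.5 or less lower. Of the 66 genes 7 were higher, Mrpl16, Mrpl19, Mrpl48, Mrpl58, Mrps7, Mrps9 and Mrps17 (10.6%, against 5.83% of the 6435 genes on in at least 1 cell), and 1 was lower, Mrpl17 (1.52%, against 1.88%). These counts rested on single cells. The number called higher was 14 without A2 (22.6% of the members then on, against 13.7% of all genes then on), 11 without H1 (16.7% against 7.94%), 3 without C1 (4.76% against 2.00%), 2 without E3 (3.12% against 2.63%) and 1 without E1 (1.54% against 2.35%). With C3 kept it was 0, against 0.808% of all genes. The number called lower was 5 without C7 (7.58% against 8.55%), 3 without H1 (4.55% against 6.98%), 2 without C12 (3.03% against 6.62%), 2 without F7 (3.08% against 6.11%) and 2 without E1 (3.08% against 1.96%). It was 0 without C1 (against 2.73% of all genes), without G2 (against 1.38%) and with C3 kept (against 1.57%). Without both A2 and C1, an alternative chosen after seeing the data, 8 were higher (13.8% against 5.46%) and 1 lower (1.72% against 5.25%).

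Among the higher members, Mrps7, a protein of the head of the small subunit, was the one on in every large cell compared. It had adjusted counts of 666 in A2, 179.8 in F7, 733 in H1, 134 in C12 and 121 in C7 among the small cells and of 583 in E1, 362 in E3, 892 in C1 and 377 in G2 among the large cells. All 4 large cells were above C12, C7 and F7, but A2 and H1 were above E1, E3 and G2. The log2 ratio was 0.59, from a mean of 554 against 367. Exons of Mrps7 overlap those of Gga3 and Mif4gd in the annotation, and no source used here states strand-specific counting, so reads there cannot be assigned to one gene.

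Mrpl48 belongs to the central protuberance of the large subunit. It had adjusted counts of 237 in A2, 339.8 in F7, 106 in H1, 133 in C12 and 159 in C7 among the small cells and of 719.8 in E1, 315 in E3, 497 in C1 and 237 in G2 among the large cells. C1, E1 and E3 were on and only F7 among the small cells was, at a level between E3 and C1. The means were 442 against 195 (log2 ratio 1.18). The other central protuberance genes of the list had log2 ratios of -0.09 (Mrpl27), -0.02 (Mrpl40), -0.37 (Mrpl46) and 0.12 (Mrpl38, never on).

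Mrpl58, also known as ICT1, is a peptidyl-tRNA hydrolase that became part of the large subunit. It had adjusted counts of 539 in A2, 237 in F7, 100 in H1, 101 in C12 and 100 in C7 among the small cells and of 495 in E1, 799.5 in E3, 394 in C1 and 101 in G2 among the large cells. The large cell G2 lay with the low small cells C12, C7 and H1, and A2 was above C1 and E1. The means were 447 against 215 (log2 ratio 1.06).

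Mrps17 had adjusted counts of 311 in A2, 102 in F7, 169.7 in H1, 134 in C12 and 103 in C7 among the small cells and of 706 in E1, 441 in E3, 411 in C1 and 100 in G2 among the large cells. The rRNA-binding protein it encodes is part of the small subunit, and the gene was on in C1, E1 and E3 and in A2, while G2 had no read. The means were 415 against 164 (log2 ratio 1.34).

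Mrpl16, Mrpl19 and Mrps9 were on in 2 large cells each and in no small cell, which is the smallest difference that the threshold calls. Mrpl16, whose bacterial counterpart lies close to the tRNAs in the large subunit, had adjusted counts of 112 in A2, 120.3 in F7, 101 in H1, 126 in C12 and 100 in C7 among the small cells and of 412 in E1, 566 in E3, 101 in C1 and 100 in G2 among the large cells. E1 and E3 were high, and C1 and G2 were as low as the small cells. The log2 ratio was 1.40, with 1877 reads in the 4 large cells (95% exact Poisson interval 1793 to 1964) and 160 in the 5 small cells (136 to 187). Mrpl19 had adjusted counts of 170.1 in A2, 284 in F7, 101 in H1, 101 in C12 and 100 in C7 among the small cells and of 660.3 in E1, 129 in E3, 424 in C1 and 100 in G2 among the large cells. The cells on were C1 and E1, F7 lay just under the threshold, and the log2 ratio was 1.12. Mrps9, whose bacterial counterpart reaches the peptidyl site with its tail, had adjusted counts of 149 in A2, 100 in F7, 118 in H1, 100 in C12 and 100 in C7 among the small cells and of 327 in E1, 430.1 in E3, 100 in C1 and 101 in G2 among the large cells. Again E1 and E3 were the 2 cells on, with a log2 ratio of 1.08. Just outside the threshold with no small cell on stood Mrps18b, Mrps24, Mrps25, Mrps27, Mrps33 and Mrpl34, each on in 1 large cell (score 0.25).

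Mrpl17, at the rim of the tunnel exit, was the 1 member called lower. It had adjusted counts of 1189 in A2, 702 in F7, 429.9 in H1, 367 in C12 and 114 in C7 among the small cells and of 708 in E1, 294 in E3, 251 in C1 and 209 in G2 among the large cells. All small cells besides C7 were on, and of the large cells E1 was, above F7, with E3 just under the threshold. The means were 365 against 561 (log2 ratio -0.62). Its reads in C3 gave an adjusted count of 312, on as well. Without A2 and C1 the ratio was 0.0012, so the direction was lost.

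**Figure D3:**
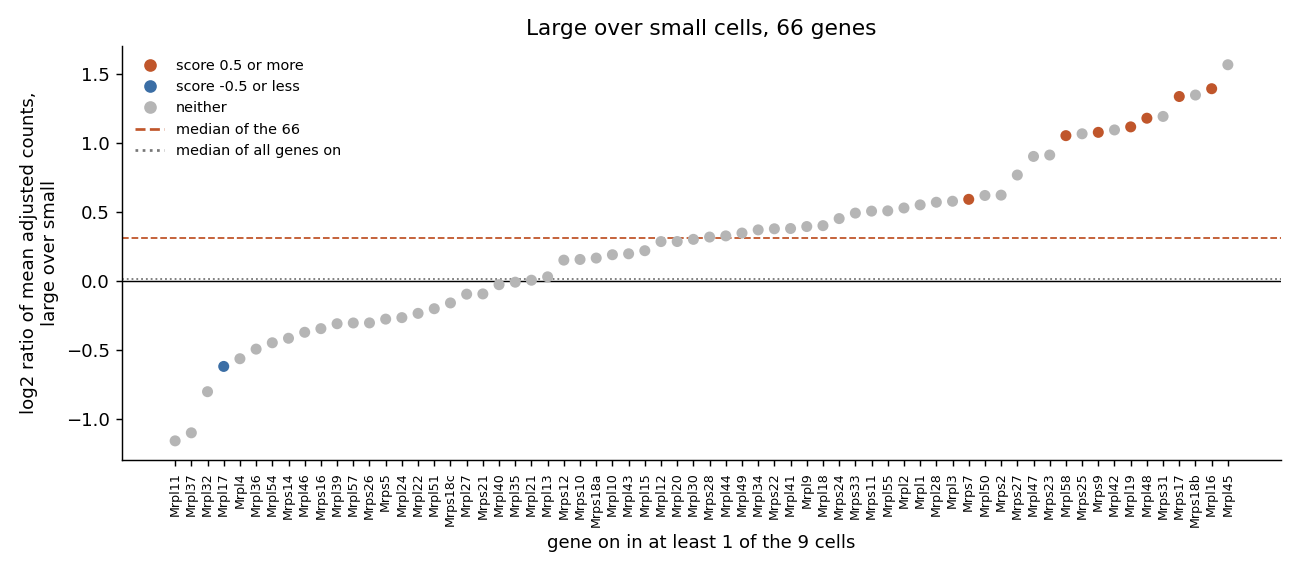
Log2 ratio of mean adjusted counts, 4 large over 5 small cells (vertical axis), for each of the 66 genes on in at least 1 cell, in rising order (horizontal axis), coloured by score, with the median of the 66 (0.31, dashed) and of all 6435 genes on (0.02, dotted). Ratios run from -1.16 (Mrpl11) to 1.57 (Mrpl45), and 44 of the 66 are above 0, against 3260 of the 6435.

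The log2 ratio of mean adjusted counts used the level as well as the call. Its median over the 66 genes was 0.31, and 0.02 over the 6435 genes on in at least 1 cell. Over all 77 genes it was 0.22, and -0.00083 over the 13107 genes with a read. The ratio was above 0 for 44 of the 66 and for 3260 of the 6435. Among the 66 it was at 1 or more for 11 (16.7%, against 16.1%) and at -1 or less for 2 (3.03%, against 14.3%). The median of the 43 Mrpl genes was 0.29 and that of the 23 Mrps genes 0.45. It was 0.19 for the 39 genes named for bacterial proteins and 0.38 for the other 27. Cytosolic ribosomal proteins had a median of -0.12 over 76 genes and the nuclear respiratory chain 0.14 over 71. Leaving out 1 cell at a time moved the median of the members between 0.08 (without C1) and 0.64 (without A2). The median of all genes moved with it, from -0.38 without C1 to 0.53 without A2, and the difference between both medians was between 0.11 and 0.46. With C3 kept the member median was 0.10 and that of all genes -0.09.

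The widest ratios outside the score calls included Mrps18b, 1 of 3 paralogs of the bacterial S18 protein. It had adjusted counts of 100 in A2, 146 in F7, 100 in H1, 100 in C12 and 100 in C7 among the small cells and of 257 in E1, 248 in E3, 505 in C1 and 103 in G2 among the large cells. Reads were absent from 4 of the 5 small cells, and C1, E1 and E3 were above all small cells while G2 was not. Its log2 ratio was 1.35, while Mrps18a, whose protein sits in the large subunit, was at 0.17 and Mrps18c at -0.16. Mrps31 had a ratio of 1.19, Mrpl42 of 1.10 and Mrps25 of 1.07. Mrpl42, a subunit of the mitochondrial lineage, had adjusted counts of 871 in A2, 418 in F7, 159.9 in H1, 109.9 in C12 and 100 in C7 among the small cells and of 1431 in E1, 394 in E3, 913 in C1 and 100 in G2 among the large cells. It was on in 3 of the 4 large cells and in 2 of the 5 small ones.

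At the low end Mrpl11, of the stalk base where translation factors bind, had adjusted counts of 271 in A2, 669 in F7, 187 in H1, 153 in C12 and 230.3 in C7 among the small cells and of 168 in E1, 152 in E3, 119 in C1 and 104 in G2 among the large cells. All 5 small cells were above E3, C1 and G2, all but C12 were above E1, and F7 alone was on. The ratio was -1.16, and it was -0.63 without F7. The other stalk genes Mrpl10 and Mrpl12 had ratios of 0.19 and 0.29. Mrpl37, a protein added in mitochondria, had adjusted counts of 788 in A2, 1244 in F7, 110.1 in H1, 100 in C12 and 114 in C7 among the small cells and of 100 in E1, 299 in E3, 351 in C1 and 130.3 in G2 among the large cells. A2, F7 and C1 were on, and E1 and C12 had no read. Its ratio was -1.10 and -0.34 without F7. Mrpl32 (-0.80) and Mrpl4 (-0.56) followed.

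Other genes of the tunnel exit and of the mRNA path were spread around 0. Mrpl47 was at 0.90, Mrpl22 at -0.23, Mrpl24 at -0.26 and Mrpl23, never on, at 0.04. For Mrps12, which takes part in decoding, the ratio was 0.15, for Mrps2 0.62 and for Mrps5 -0.27. The abundant Mrpl28 had adjusted counts of 1325 in A2, 125 in F7, 215 in H1, 447 in C12 and 100.3 in C7 among the small cells and of 424 in E1, 986 in E3, 1123 in C1 and 100 in G2 among the large cells. A2 stood above the large cells, and the ratio of 0.57 was 1.57 without A2.

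The steadiest members across cells were Mrps15, Mrps21 and Mrpl20, with a coefficient of variation of CPM of 0.49 over the 9 cells, and Mrps14 with 0.50, where the median of the 77 was 1.13. Mrpl20, whose bacterial counterpart binds rRNA early in assembly, had adjusted counts of 644 in A2, 235 in F7, 361 in H1, 319 in C12 and 303 in C7 among the small cells and of 309 in E1, 506 in E3, 886 in C1 and 117 in G2 among the large cells. It was on in A2, C12, C7, H1, C1, E1 and E3, under the threshold in F7 and near the added constant in G2. The ratio was 0.29.

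Mrpl46, of the central protuberance, and Mrps11, of the small subunit, were chosen for a closer look after their values had been seen. Mrpl46 was at 122 in A2, 14.4 in F7, 2.91 in H1, 144 in C12 and 0.302 in C7 among the small cells and 61 in E1, 57.8 in E3, 36.4 in C1 and 0 in G2 among the large cells (CPM). Mrps11 was at 46.1 in A2, 4.04 in F7, 0 in H1, 135 in C12 and 0 in C7 among the small cells and 29.6 in E1, 117 in E3, 84.1 in C1 and 0 in G2 among the large cells (CPM). In A2, C12, C1, E1 and E3 both genes were higher than in any of C7, F7, H1 and G2, and neither had a read in C3. Across the 9 cells log10(CPM + 1) of the pair had a Pearson r of 0.93, and the median over the 2926 pairs of members was 0.25. By r it ranked 12 among these pairs, so 11 pairs had a higher r. The cells differ in depth and in how many genes they detect, which all pairs share. The starts of both genes stand 42 bases apart in the RefSeq windows given above, and 173 bases of their exons overlap in the GENCODE annotation, so reads from that stretch cannot be told apart without strand.

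**Figure D4:**
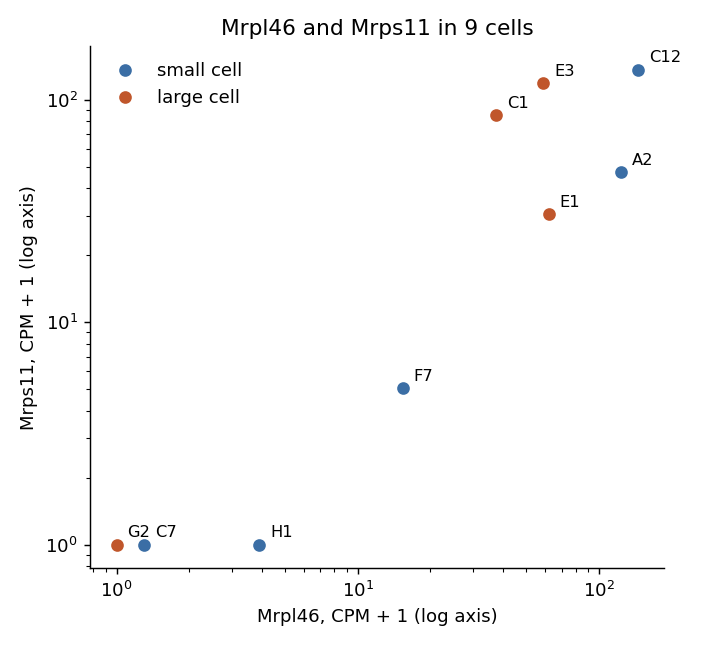
CPM + 1 of Mrpl46 (horizontal axis) and Mrps11 (vertical axis), both on log axes, 1 point for each of the 9 cells, small in blue and large in orange. A2, C12, C1, E1 and E3 are high for both genes, and C7, H1 and G2 had no read of Mrps11.

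The diluted bulk library gave a second view of the family, in which fewer cells with a transcript and less of it per cell cannot be told apart. It had 13287 reads for the family, on 61 of the 77 genes, with a median of 92.5 CPM, where the median of the 9-cell means was 48.8 CPM. Across the 77 genes log10(CPM + 1) in the bulk had a Pearson r of 0.43 with the mean of the 9 cells, and between 0.06 (H1) and 0.59 (E1) with single cells. Between pairs of the 9 cells r was 0.24 at the median (range 0.05 to 0.51), and between C3 and the others 0.06. Genes are not independent replicates, and these values share the depth of each library.

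Mrps35, a small subunit protein, had the most reads of the family in the bulk and few in the cells. It had 606 reads or 348 CPM in the bulk, which is 40.3 CPM per kilobase of exon. In the cells it was at 12.5 in A2, 0.969 in F7, 5.82 in H1, 0 in C12 and 0 in C7 among the small cells and 14.9 in E1, 3.51 in E3, 13.1 in C1 and 0 in G2 among the large cells (CPM), all below the bulk. C3 held 193 CPM. The mean of the 9 cells, 5.64 CPM, was lower than the bulk by a log2 difference of -5.95. Mrpl52 was the other member among the 10 with most reads in the bulk that was on in no cell, with 227 CPM in the bulk and a mean of 48.1 CPM in the cells. Per kilobase of exon the bulk held 205 CPM of Mrpl52 and 241 CPM of Mrpl28.

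In the other direction, 16 members had no read in the bulk, and 10 of these were on in at least 1 cell. Mrps2, whose bacterial counterpart lies where mRNA leaves the small subunit, had no read there but was at 125 in A2, 324 in F7, 0 in H1, 0 in C12 and 0 in C7 among the small cells and 64.6 in E1, 395 in E3, 188 in C1 and 0 in G2 among the large cells (CPM). F7 and E3 were highest and C12, C7, H1 and G2 had none. Its mean of 122 CPM was 70.6 times the 1.72 CPM that 3 counts in the bulk library amount to. By the same measure Mrpl37 was at 55.6 times, Mrpl49 at 48.6 times and Mrpl1 at 47.0 times. Reads are PCR copies and the bulk was diluted, so these multiples are not lower limits of a difference. Single cells carried much of them. They were 50.8 for Mrps2 without E3, 26.3 for Mrpl37 without F7, 22.9 for Mrpl49 without H1 and 27.7 for Mrpl1 without E1. Mrps15, one of the steadiest genes in the cells with reads in all 9, also had none in the bulk.

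**Figure D5:**
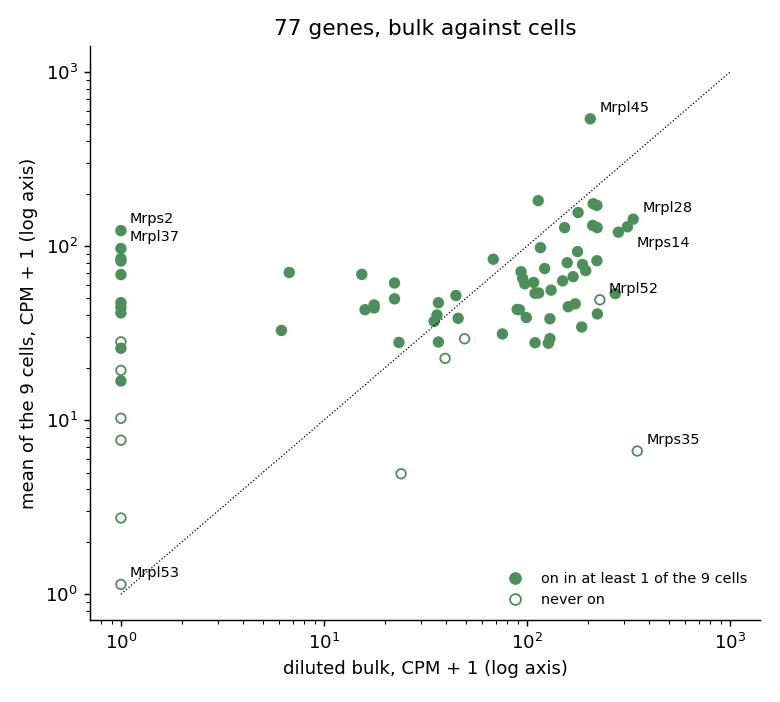
Mean CPM + 1 of the 9 cells (vertical axis) against CPM + 1 of the diluted bulk (horizontal axis), both on log axes, 1 point per gene for the 77 genes, filled where the gene was on in at least 1 cell, with a dotted line of equal values. Mrps35 lies far to the lower right, and 16 genes with no read in the bulk stand on the left edge.

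Genes with Mrpl symbols held more reads than those with Mrps symbols, 48 against 29 genes. The lists follow the symbol alone, and the place of each protein was not checked. Mrps18a, for example, encodes a protein of the large subunit. Mrpl counts were between 1.99 (E3) and 5.38 (C7) times the Mrps counts in the 9 cells, 1.79 times in the bulk and 8.08 times in C3. In C3 the 4 members on were Mrpl17, Mrpl32, Mrpl37 and Mrpl39, and Mrpl39 alone gave 22.7% of its family reads.

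Genes that serve the mitoribosome were given by 4 lists. Over all genes of the table, 16.9% were on in at least 1 cell. Of those, 5.83% were higher and 1.88% lower. Of 11 translation factors 9 were on in at least 1 cell, 1 was higher and 0 lower, with a median log2 ratio of -0.05. The higher one was Tufm, which brings aminoacyl-tRNA to the ribosome, on in 3 large cells of 4 and in 1 small cell of 5 (log2 ratio 1.09). Of 21 assembly genes 12 were on, 1 was higher and 0 lower, with a median of 0.66. This was Fastkd2, an RNA-binding protein needed for the large subunit, with the same on calls, 3 of 4 and 1 of 5 (log2 ratio 1.55). Of 13 genes of mitochondrial DNA expression 9 were on, with a median of 0.22, and the 1 that was higher was the poly(A) polymerase Mtpap (1.60). Of the 5 subunits with other symbols 4 were on, with a median of -0.09. The GTPase Dap3 of the small subunit was higher, on in 3 large cells of 4 and in 0 small cells of 5 (log2 ratio 1.33). With these 5 added to the family, 8 subunits were higher (11.4% of those on, against 5.83% of all genes on) and 1 lower (1.43%, against 1.88%).

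The 4 pseudogenes named after members had 402 reads over the 10 cells, beside 262614 of the members. Copies under other names were not looked for. How the counting treated reads that match several places is not known, so the weight of copies in the family total was not tested. Exons of 32 members overlapped those of another gene in the annotation, and their counts are uncertain to that extent. Examples among those named are Mrpl18 with Tcp1, Mrpl19 with Gcfc2, Mrpl44 with Wdfy1 and Mrpl47 with Actl6a and Ndufb5. Further ones are Mrpl48 with Rab6a, Mrpl58 with Ict1os and Mrps18b with Gm16279.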

How the data were processed

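The authors captured 10 single cells from purified, stimulated B cells on the C1 chip and prepared a bulk and a no-cell control in tubes, with SMARTer amplification and Nextera XT. Reads were aligned by the authors with STAR (named in the submitters' processing notes, without a version) to mouse build m37. A counting tool was not named. Per gene, the deposited values are unnormalized read counts. They also deposited a linear ratio per library, the factor from the spike-ins, which was used as given. Gene counts per cell were between 3311235 and 6311782, and more counts did not always go with more genes detected. G2 had 5588852 counts and reads for 4430 genes, where C1 had 4043241 counts and reads for 7354. A further 26 columns of per-sample values were not used, and the authors' comparison tables (expression scores, enriched pathways and motifs) were not used.

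Symbols came from GENCODE M21 (GRCm38) by Ensembl identifier, for 32919 of 37991 genes, and promoters from RefSeq (GRCm38.p6). The adjusted count was the count times the factor plus 100, and on meant above 300. The score, the log2 ratio of mean adjusted counts, shares of counts with exact binomial intervals and sums with exact Poisson intervals (95%, counting error only) were computed with Python 3.11.15, numpy 2.4.6, pandas 2.3.3 and scipy 1.17.1. The score and the log2 ratio were tested on simulated counts. Those counts had Poisson error alone and no further spread between cells, so the test checks only the calculation. Each size group counts as 1 sample, so no test between groups was run. Within groups of 4 or 5 cells, only outlying values were sought. The genes named are those called, the 5 largest and 5 smallest ratios, the 8 highest means, members on in 8 or more cells, members with no read in the cells, members never on among the 10 highest of the bulk, fixed structural groups, and the 5 highest and 5 lowest ratios of the diluted bulk to the 0 h library. The last group is not described, since that library went against its label. Others were chosen after their values were seen. The members, lists and alternatives were chosen with earlier results of these data known. Of 7 subunits with other symbols, Mrpl57 and Mrpl58 are members by their newer symbols, so 5 remained. The alternatives were other thresholds, constants and scalings, C3 kept and each cell left out. One B cell marker of the list is not reported here.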

Additional observations from a re-analysis of the deposited data

Results flagged for a closer look

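In groups of 4 or 5 cells, a cell was set apart where its gap to the nearest of the others, divided by the range of the group, passed Dixon's 95% critical value. Of 60 groups tested 7 were, with Mrpl17 in E1 counted both with and without C3. A rate of 1 in 20 by chance holds for independent, normally distributed groups. These groups share cells, and adjusted counts have a floor at 100, so the 7 cannot be set against that rate. Among the large cells without C3, G2 had reads for 32 members, where the next was 70. Over all genes G2 was also the lowest of these cells, with reads for 4430, where the next was 7138 (E1). Among all 5 large cells, C3 had a ratio of Mrpl to Mrps counts of 8.08, where the next was 2.92. Mrpl17 was at an adjusted count of 708 in E1, above the next large cell at 312 (C3), or at 294 when C3 was left out. Among the small cells, Mrps18b was at 146 in F7 and at 100, no read, in the other 4, where any single cell with a read would have been set apart. Mrpl11 was at 669 in F7, with the next small cell at 271. Mrpl28 was at 1325 in A2, with the next at 447. The causes of these values were not tested.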

How the results depend on the processing

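Each size group is 1 sample and libraries differ in the reads needed for an on call, so the calls describe these cells. The number of members on in at least 1 cell (66) was 46 to 77 over the thresholds and lists tried. The number called higher (7, against 5.83% of all genes on) was 0 with a threshold of 500 (against 5.41%) or with C3 kept (against 0.808%), and from 1 to 14 leaving out 1 cell (against 2.00 to 13.7%). The number called lower (1, against 1.88%) was 2 with a threshold of 200 (against 2.41%), 0 with 500 (against 1.76%) or with C3 kept (against 1.57%), 5 with library totals (against 3.09%), and from 0 to 5 leaving out 1 cell (against 1.38 to 8.55%). The median log2 ratio (0.31) was 0.10 with C3 kept, 0.24 with library totals, 0.43 with a constant of 10, 0.69 with medians over cells, 0.22 over members with a read, 0.41 without A2 and C1 and 0.081 to 0.64 leaving out 1 cell. The ratio of median family counts (2.28) was 1.98 with C3 kept, 1.30 with library totals, 1.41 with means, 2.36 without A2 and C1 and 1.66 to 2.72 leaving out 1 cell. The median share (0.541%) was 0.517% with C3 kept, 0.594% without mitochondrial and immunoglobulin genes, 0.493% without A2 and C1 and 0.517 to 0.570% leaving out 1 cell. The log2 ratio of Mrpl17, the 1 called value that changed sign, was 0.0012 without A2 and C1, and the cause was not tested. Of 44 named members 21 kept the sign of their ratio in all 13 settings run on them. No paired analysis was possible because replicate numbers only name cells and no test was run. At 190 counts in the library with no cell, a background under 1.58% of its counts cannot be seen.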
